A study of Mus musculus with 44 samples.

Results

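Simple-epithelium keratins were followed in the gastric corpus of mice as 6 genes chosen by name, Krt7, Krt8, Krt18, Krt19, Krt20 and Krt23, out of 31484 genes whose transcripts were summed. All 6 passed the filter on low counts that left 14901 genes. RNA from the corpus of 44 libraries was sequenced from BalbC mice aged 13 months. The 4 groups were wild type given polyethylene glycol vehicle (WT/PEG, n = 11), wild type given netazepide (WT/NTZ, n = 9), H+/K+ATPase beta subunit knockout given vehicle (KO/PEG, n = 13) and knockout given netazepide (KO/NTZ, n = 11). Netazepide, labelled YF, blocks the gastrin receptor, and the knockout mice were homozygous for the deletion. The comparisons ask what the knockout and the antagonist each did in the corpus, and each group enters more than one of them, so the comparisons share samples.

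Keratins are the intermediate filaments of epithelia. Each filament is built from obligate pairs of 1 type II chain, such as Krt7 or Krt8, and 1 type I chain, such as Krt18, Krt19, Krt20 or Krt23. Krt8 and Krt18 are the base pair of simple, single-layered epithelia. Krt19 is a further type I chain of glandular epithelium, Krt7 belongs mostly to duct-like epithelium, and Krt20 to mature surface cells of stomach and intestine. Krt23 is a less studied type I chain. Stratified epithelia such as the squamous forestomach of the mouse use other pairs, among them Krt5 with Krt14 in the basal layer and Krt4 with Krt13 above it.

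The genes lie in the 2 keratin clusters of the genome (GRCm38). The type II cluster on chromosome 15 holds Krt7 (101411043 to 101430313, plus strand) and Krt8 (101996698 to 102004482, minus strand), and it also holds Krt18 (102028180 to 102032027, plus strand), a type I gene that sits 23697 bases from Krt8 and is read in the opposite direction. The type I cluster on chromosome 11 holds Krt20 (99428403 to 99438150), Krt23 (99477974 to 99493137) and Krt19 (100140810 to 100148665), all on the minus strand. Promoter windows of 300 bases, from 250 before to 50 after the start, were taken from RefSeq (GRCm38.p6) for 5 of the 6 genes, and Krt19 had no entry. The RefSeq window of Krt7, from 101412153, lies wholly inside the gene as located above, which begins at 101411043. The 2 annotations thus differ on the start of Krt7, and its window describes the RefSeq start only. The windows of Krt7, Krt20 and Krt23 are shown because these were the keratins with the largest change, the next largest and none past the test between KO/PEG and WT/PEG. Capitals mark matches on either strand to the TATA box (letters TATAAA), to the CCAAT box, which was not found, and to the GC box (letters GGGCGG).
Krt7, chr15:101412153-101412452, plus strand: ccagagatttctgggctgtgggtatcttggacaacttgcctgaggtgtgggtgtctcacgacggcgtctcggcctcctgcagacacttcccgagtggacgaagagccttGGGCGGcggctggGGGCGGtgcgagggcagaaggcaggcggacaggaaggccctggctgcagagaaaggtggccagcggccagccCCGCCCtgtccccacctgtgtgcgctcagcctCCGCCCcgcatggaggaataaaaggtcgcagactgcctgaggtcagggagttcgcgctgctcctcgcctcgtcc
Krt20, chr11:99438104-99438403, minus strand: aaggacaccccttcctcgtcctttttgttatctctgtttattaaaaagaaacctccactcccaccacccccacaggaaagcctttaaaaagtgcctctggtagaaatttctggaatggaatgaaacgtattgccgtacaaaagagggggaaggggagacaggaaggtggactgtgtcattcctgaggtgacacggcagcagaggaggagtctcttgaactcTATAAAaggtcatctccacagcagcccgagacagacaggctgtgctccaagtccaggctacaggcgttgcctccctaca
Krt23, chr11:99493071-99493370, minus strand: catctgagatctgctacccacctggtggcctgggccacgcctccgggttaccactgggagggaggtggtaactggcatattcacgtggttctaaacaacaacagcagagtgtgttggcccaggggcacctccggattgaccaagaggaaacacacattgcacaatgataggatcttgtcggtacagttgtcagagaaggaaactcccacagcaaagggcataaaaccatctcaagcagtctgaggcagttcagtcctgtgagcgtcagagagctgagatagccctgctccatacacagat
Krt7 carried 4 matches of GGGCGG and no TATAAA, 66.3% G or C and 21 CG steps. Krt20 carried TATAAA 29 bases before its start, 50% G or C and 6 CG steps, and Krt23 carried none of the 3 motifs, at 53% G or C. TATAAA was present in 13.6% of the 32851 windows of all genes, GGGCGG in 35.7% and CCAAT in 37.4%, and the median G or C content was 52.7%. TGANTCA, searched the same way, was in none of the 5 keratin windows and in 7.81% of all windows. CCACCC was in those of Krt8, Krt18 and Krt20 and in 31.5% of all windows. In the window of Krt8, overlapping matches of TATAAA on the 2 strands began 1 and 3 bases before the RefSeq start. That window spans 102004293 to 102004592, while the gene as located above begins at 102004482 on the minus strand. The 2 annotations thus differ on the start of Krt8 too, and these matches lie inside the gene as located. A match describes the letters of a window and was not tested as a binding site.

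The libraries held 6065084 to 21945124 estimated counts. Gene levels are given as CPM, estimated counts per 1000000 with library totals scaled by normalisation factors. Atp4b, the deleted subunit, was at 2139 to 5737 CPM in the 20 wild-type libraries and at 2.28 to 40.6 CPM in the 24 knockout libraries, so every library matched its genotype label. Squamous keratin message showed that the tissue pieces were not all alike: Krt5 was at 10 CPM or more in 6 WT/NTZ libraries, 3 of WT/PEG, 3 of KO/NTZ and 2 of KO/PEG and near 0 in most others. The share of counts from mitochondrial genes was 5.81% to 11.7% in WT/PEG and 2.37% to 14.4% in KO/PEG, with the highest share in KO/PEG library 46. WT/PEG animals all carried numbers of 100 or above, against 4 of 9 WT/NTZ, 1 of 11 KO/NTZ and 7 of 13 KO/PEG animals, so results within a number class are given where they bear on a keratin. The labels give more KO/PEG libraries than the study describes KO/PEG mice, the animal number 110 occurs once in each knockout group, and a pair of the WT/PEG libraries carry the same animal number. Whether other libraries share an animal is not stated, so n counts libraries. In whole tissue, more cells of a type and more RNA per cell cannot be told apart.

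Under vehicle, the knockout corpus held more message of 5 of the 6 keratins. Krt7 rose about 14.99-fold, Krt20 3.58-fold, Krt18 2.41-fold, Krt19 2.26-fold and Krt8 2.24-fold, and Krt23 did not pass the test. In edgeR's quasi-likelihood fit, with p adjusted over all genes by Benjamini-Hochberg, 74.6% of the 14901 genes passed in this comparison with 37.5% higher and 37.2% lower, so passing by itself set the keratins little apart. In size, the median log2 fold change was 1.22 over the 6 keratins and -0.003 over all genes, and 0.96% of all genes had a log2 fold change above that of Krt7. The keratins were chosen with earlier results of these data known, so these values do not show that keratins as a family stand apart. The same share for the other keratins is not given here.

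Krt7, the type II chain of duct-like epithelium, was at 11.4 to 27.9 CPM (median 20.1) in WT/PEG and at 143.9 to 545 CPM (median 247) in KO/PEG. All 13 KO/PEG libraries lay above every WT/PEG library. The log2 fold change was 3.91 (SE 0.30, 95% interval 3.29 to 4.52, adjusted p = 2.58e-14, edgeR), which ranked 127 of the 14901 genes by p. For Krt7 and the keratins below, the share of all genes whose libraries separate as far is not given here.

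Krt8, the general type II partner, was at 1444 to 2550.2 CPM (median 1940) in WT/PEG and at 1888 to 7053 CPM (median 3989.8) in KO/PEG, with 12 of 13 KO/PEG libraries above every WT/PEG library. Krt18, its usual type I partner, was at 465 to 703 CPM (median 547) and at 619 to 2187 CPM (median 1271), again with 12 of 13 above. Krt19 was at 856 to 1692 CPM (median 1301) and at 1226 to 5273 CPM (median 2505), with 11 of 13 above. The single KO/PEG library inside the wild-type range for both Krt8 and Krt18 was library 46, the one with the highest mitochondrial share, and libraries 46 and 32 were those inside it for Krt19. The log2 fold changes were 1.17 for Krt8 (SE 0.16, adjusted p = 4.51e-08, edgeR), 1.27 for Krt18 (SE 0.15, adjusted p = 2.39e-09) and 1.18 for Krt19 (SE 0.19, adjusted p = 7.78e-07). These 3 estimates differed by less than 1 SE of any of them. Without library 46 they were 1.23, 1.33 and 1.24.

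Krt20, the chain of mature surface cells, was at 40.7 to 252 CPM (median 111.4) in WT/PEG and at 215 to 1302 CPM (median 437) in KO/PEG, and 10 of 13 KO/PEG libraries lay above every WT/PEG library. Its log2 fold change was 1.84 (SE 0.31, adjusted p = 1.33e-06, edgeR). Krt20 spread most: KO/PEG library 45, at 1302 CPM, stood above the next library, at 628 CPM. Among animals numbered 100 or above its log2 fold change was 1.44 (adjusted p = 9.75e-05), and KO/PEG animals numbered below 100 had a mean of 599.6 CPM against 341 CPM in the others. Krt23 was at 106 to 162 CPM (median 139.9) in WT/PEG and at 88.2 to 217 CPM (median 150.2) in KO/PEG, with KO/PEG libraries on both sides of the wild-type range. Its log2 difference was 0.10 (SE 0.11, 95% interval -0.12 to 0.32, adjusted p = 0.423). Scaled by total counts alone, Krt23 passed at 0.37 (adjusted p = 0.000728), a scaling that moved the median of all genes to 0.29, so relative to that median it differed little.

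**Figure D1:**
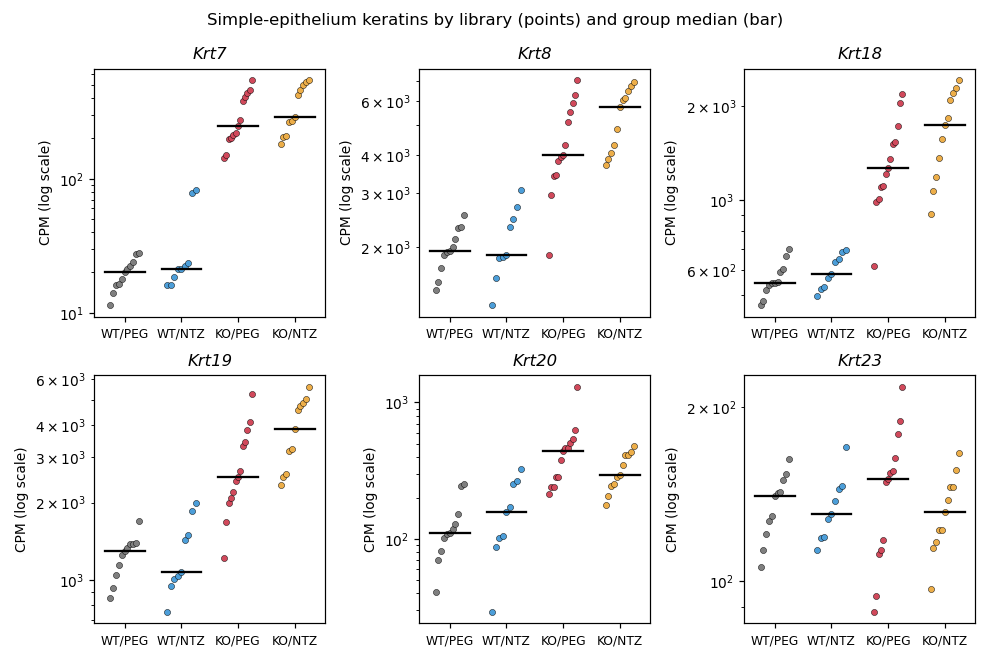
CPM of each keratin (log scale) in every library, ordered by value within the 4 groups, with the group median as a bar. All knockout libraries lie above all wild-type libraries for Krt7, at 143.9 CPM or more against 83.0 CPM or less, while Krt23 lies between 88.2 and 217 CPM in all groups.

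The mitochondrial share moved with genotype and with the keratins. Over the 44 libraries, after subtracting each group's mean on the log2 scale, Krt18 fell as the mitochondrial share rose, with Pearson's r of -0.84 and Spearman's rho of -0.75 (permutation p = 1e-05 for both, the smallest that 100000 permutations within groups can give, adjusted p = 7.5e-05 and 0.0001 over 30 relations). Without the 2 libraries farthest from the median share, r was -0.79. For Krt8 r was -0.73 and for Krt19 -0.72, and for Krt20 it was -0.02 (permutation p = 0.882). With the log2 mitochondrial share added to the fit, a choice made after the data were seen, the genotype log2 fold changes were 0.67 for Krt8 (adjusted p = 4.69e-05), 0.71 for Krt18 (1.19e-07), 0.58 for Krt19 (0.00175), 3.27 for Krt7 (1.72e-12) and 1.88 for Krt20 (2.11e-05), all in edgeR, so these 5 still passed while the values of Krt8, Krt18 and Krt19 fell by more than 1.5 times. The median share was 9.53% in WT/PEG and 9.38% in WT/NTZ, against 4.83% in KO/PEG and 3.78% in KO/NTZ. Because the share differed with genotype, this fit cannot tell its part in the keratin differences from that of genotype. That part was not tested otherwise.

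Marker genes of other cell types differed between the same groups. All 5 mucous neck and metaplasia (SPEM) markers were higher in KO/PEG, and their summed level, per transcript length, was 1931 to 3115 in WT/PEG and 7483 to 63927 in KO/PEG. Of the 4 chief cell markers, 3 were lower and 1 higher, and their sum was 86933 to 159465 in WT/PEG and 2139 to 33426 in KO/PEG, with no overlap. Of the 5 genes counted as surface mucous markers, Muc5ac, Gkn1 and Gkn2 were lower (log2 fold changes of -1.76, -1.31 and -1.31). Tff1 did not pass, and Gkn3 alone was higher, at 7.43. Their sums, Gkn3 included, were 97803 to 132771 in WT/PEG and 35499 to 152451 in KO/PEG. Krt20, a chain of surface cells that the study lists among SPEM-related genes, was higher. All 4 parietal markers were lower, with sums of 2683 to 3685 and of 691 to 4092. Of the 5 leukocyte markers, 3 were higher, with sums of 103.3 to 347 and of 279.9 to 1460.4. Their part in the keratin differences was not tested. With the libraries of high Krt5 left out, the log2 fold changes were 3.79 for Krt7, 1.10 for Krt8, 1.199 for Krt18, 1.07 for Krt19 and 1.71 for Krt20, and all 5 passed.

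Levels of different keratins were compared as estimated counts divided by transcript length and scaled to a sum of 1000000 in each library. On this scale the 6 keratins summed to 2923 ± 513 (SD, n = 11) in WT/PEG and 7563 ± 1671 (n = 13) in KO/PEG, and under netazepide to 3193 ± 1104 (n = 9) in wild type and 8637 ± 1339 (n = 11) in knockout. The KO/PEG mean was 2.59 times that of WT/PEG, and the lowest KO/PEG library, at 5119.9, stood above the highest WT/PEG library, at 4049. This scale takes no normalisation factors, unlike CPM. That lowest library was library 46, which had the highest factor of all libraries (1.41). By CPM it lay inside the wild-type range for Krt8, Krt18 and Krt19. The chief cell markers had mean sums on this scale of 136062 in WT/PEG and 11195 in KO/PEG. The part of the scale in the difference was not tested. Krt19, Krt8 and Krt18 together made up 93.9% ± 0.800 of the sum in WT/PEG and 92.7% ± 2.33 in KO/PEG. So the keratin with the largest fold change, Krt7, was still a minor message in the knockout, at 1.60% ± 0.315 of the sum against 0.328% ± 0.131 in WT/PEG.

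In WT/PEG the order of levels was Krt19 at 1179 ± 225 (SD, n = 11), Krt8 at 1127 ± 217, Krt18 at 436 ± 37.2, Krt23 at 96.0 ± 12.4, Krt20 at 75.6 ± 43.8 and Krt7 at 9.45 ± 3.77. Krt19 exceeded Krt8 in 8 of 11 libraries and Krt23 exceeded Krt20 in 9 of 11, so neither of these neighbours was apart beyond its spread, while the other steps held in every library. In KO/PEG the order was Krt19 at 3023 ± 768 (n = 13), Krt8 at 2817 ± 647, Krt18 at 1170.4 ± 199, Krt20 at 315 ± 211, Krt7 at 120.2 ± 32.9 and Krt23 at 117.4 ± 27.4. Krt20 stood above Krt23 in 12 of 13 KO/PEG libraries, and Krt7, the lowest of the 6 in every WT/PEG library, stood near Krt23, above it in 8 of 13 libraries. In WT/NTZ the means ran from Krt19 at 1265 ± 506 (n = 9), Krt8 at 1242 ± 452 and Krt18 at 473 ± 84.7 to Krt20 at 99.1 ± 61.5, Krt23 at 97.1 ± 14.9 and Krt7 at 16.4 ± 14.3, with Krt19 above Krt8 and Krt20 above Krt23 in 4 of 9 libraries each. In KO/NTZ they were 3761 ± 746 (n = 11) for Krt19, 3122 ± 429.6 for Krt8, 1336 ± 294 for Krt18, 199 ± 75.5 for Krt20, 120.1 ± 31.96 for Krt7 and 97.6 ± 11.03 for Krt23. There Krt19 was above Krt8 in 11 of 11 libraries, and Krt20 above Krt7 in 10 and Krt7 above Krt23 in 8.

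**Figure D2:**
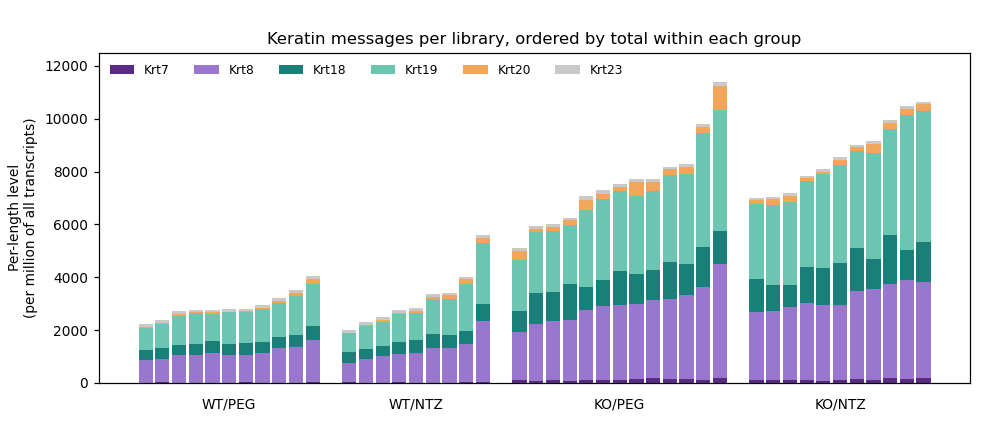
Per-length level (estimated count divided by transcript length, scaled to a fixed total) of the 6 keratins stacked for each library, ordered by total within the 4 groups. The totals run from 2216 to 4049 in WT/PEG and from 5119.9 to 11379 in KO/PEG, and Krt8, Krt18 and Krt19 fill most of every bar.

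The place of Krt19 rests on how its counts were assigned to transcripts. In KO/PEG 59.3% of its count went to the coding transcript ENSMUST00000007317 (1576 bases, 6 exons) and 40.7% to ENSMUST00000126460, a processed transcript of 823 bases without a coding label. With all Krt19 counts divided by the length of the coding transcript, the mean Krt8 to Krt19 ratio was 1.28 in WT/PEG and 1.29 in KO/PEG instead of 0.958 and 0.938, which puts Krt8 first. Both transcripts were higher in KO/PEG, by 1.051 and 1.24 on the log2 scale (adjusted p = 6.89e-05 and 2.88e-07 over 30782 transcripts, edgeR). The Krt7 counts were split too: the full-length coding transcript ENSMUST00000068904 (4094 bases, 9 exons) took 33.8% in KO/PEG, the retained-intron transcript ENSMUST00000131069 (3563 bases) took 61.3%, and the short coding transcript ENSMUST00000147662 (642 bases) took 4.75% there and 12.1% in WT/PEG. All 3 were higher in KO/PEG, by 3.76, 4.12 and 2.34 (adjusted p = 1.19e-11, 6.03e-12 and 0.00986). The other 4 keratins had 1 transcript each in the file. Stretches of 31 bases shared with other genes made up at most 3.05% of any transcript of the 6 keratins, and no such stretch was shared between members.

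The balance of chain types was similar in the 4 groups, whose ranges overlapped, and was not tested. The ratio of summed type II (Krt7 and Krt8) to type I levels was 0.634 ± 0.0326 (SD, n = 11) in WT/PEG and 0.634 ± 0.0274 (n = 13) in KO/PEG, and with netazepide 0.647 ± 0.0450 (n = 9) in wild type and 0.604 ± 0.0390 (n = 11) in knockout. Type I message, Krt19 included, thus exceeded type II message in every group on this scale. The log2 ratio of Krt8 to Krt18 was 1.35 ± 0.191 in WT/PEG (n = 11) and 1.25 ± 0.273 in KO/PEG (n = 13), a difference of -0.10 (two-sided permutation test with 100000 resamples, p = 0.327). It was 1.34 ± 0.310 in WT/NTZ (n = 9) and 1.24 ± 0.313 in KO/NTZ (n = 11), and none of the 4 comparisons between groups passed (adjusted p = 0.946 in each).

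Netazepide in knockout mice moved none of the 6 keratins past the test, while 5.58% of all genes passed, 2.98% as higher and 2.6% as lower. At an unadjusted p under 0.05, Krt18 and Krt19 were past it, and 3714 genes were. Krt19 was at 2339 to 5624 CPM (median 3856) in KO/NTZ, with 10 of 11 libraries above the KO/PEG median but only 1 above every KO/PEG library. Its log2 difference was 0.45 (SE 0.19, 95% interval 0.08 to 0.83, adjusted p = 0.126, edgeR). Krt18 was at 907 to 2417 CPM (median 1741), with a log2 difference of 0.32 (interval 0.02 to 0.62, adjusted p = 0.180), and Krt8 at 3724 to 6922 CPM (median 5728), with 0.27 (interval -0.05 to 0.59, adjusted p = 0.270).

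Krt20 was the member with the lowest estimate under the antagonist. It was at 176 to 482 CPM (median 295) in KO/NTZ, with 10 of 11 libraries below the KO/PEG median of 437 and 2 below every KO/PEG library, so the groups overlapped widely. The log2 difference was -0.51 (SE 0.29, interval -1.10 to 0.08, adjusted p = 0.264, edgeR). Among animals numbered below 100 it was -0.94 (adjusted p = 0.149). Krt7 was at 183 to 547 CPM (median 289.6) in KO/NTZ, with a log2 difference of 0.24 (interval -0.29 to 0.77, adjusted p = 0.558). Krt23 was at 96.8 to 167 CPM (median 132), with -0.13 (interval -0.35 to 0.09, adjusted p = 0.453).

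In wild-type mice the antagonist also moved none of the 6 past the test, against 1.03% of all genes (1.03% higher and 0.00671% lower). Krt7 had the lowest p of the 6, with a log2 difference of 0.75 (SE 0.29, unadjusted p = 0.0141, adjusted p = 0.374, edgeR). It rested on 2 WT/NTZ libraries, at 83.0 and 78.4 CPM, since the other 7 WT/NTZ libraries lay at 16.1 to 23.4 CPM, inside the WT/PEG range. Without those libraries the log2 difference was 0.00133 (n = 7). The first held the most Krt5 (103.2 CPM), Krt4 (1074 CPM) and Krt13 (1731 CPM) of all 44 libraries, and the second the most of the leukocyte gene Ptprc of the wild-type libraries (25.96 CPM); their part was not tested, and 4 other WT/NTZ libraries with Krt5 of 31.1 to 79.1 CPM had Krt7 of 16.2 to 22.3 CPM. With animal number class in the fit, or with only animals numbered 100 or above, Krt7 passed at 1.03 (adjusted p = 0.0475) and 1.35 (adjusted p = 0.0423), and both of these fits include those libraries. Krt8 was at 1288 to 3081 CPM (median 1881) in WT/NTZ, Krt18 at 498 to 696 CPM (median 585), Krt19 at 753 to 1986 CPM (median 1076), Krt20 at 29.1 to 324 CPM (median 157) and Krt23 at 113 to 170.1 CPM (median 130.4). Their log2 differences from WT/PEG ran from -0.01 for Krt23 to 0.37 for Krt20.

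Under netazepide the knockout again held more of 5 keratins than the wild type, where 72.5% of all genes passed, 35.6% as higher and 36.8% as lower. The log2 fold changes were 3.40 for Krt7 (SE 0.33, adjusted p = 1.63e-11, edgeR), 1.34 for Krt8 (SE 0.18, 2.86e-08), 1.505 for Krt18 (SE 0.17, 8.40e-10), 1.58 for Krt19 (SE 0.21, 2.83e-08) and 0.96 for Krt20 (SE 0.33, 0.00845). With the mitochondrial share in the fit they were 2.61, 0.74, 0.79, 0.85 and 1.01, all still past the test (adjusted p of 0.0383 for Krt20 and at most 0.000172 for the others), and the values of Krt8, Krt18 and Krt19 fell by more than 1.5 times. All 11 KO/NTZ libraries stood above every WT/NTZ library for Krt7, Krt8, Krt18 and Krt19, and 5 of 11 did for Krt20. With 72.5% of all genes passing, such separation need not be particular to keratins. Its share over all genes is not given here. Krt20 did not pass without the libraries of high Krt5 (0.89, adjusted p = 0.157), which left 8 KO/NTZ and 3 WT/NTZ libraries. Krt23 was at -0.02 (interval -0.26 to 0.23), and it passed as lower, at -0.34 (adjusted p = 0.0232), with the mitochondrial share in the fit.

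The difference between the antagonist's effect in knockout and in wild-type mice passed for none of the 6, against 0.96% of all genes (0.242% higher and 0.718% lower). Krt20 had the lowest p, with -0.88 on the log2 scale (SE 0.43, unadjusted p = 0.0493, adjusted p = 0.427, edgeR), and Krt7 stood at -0.51 (adjusted p = 0.695). No keratin is therefore shown to respond differently to the antagonist by genotype.

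**Figure D3:**
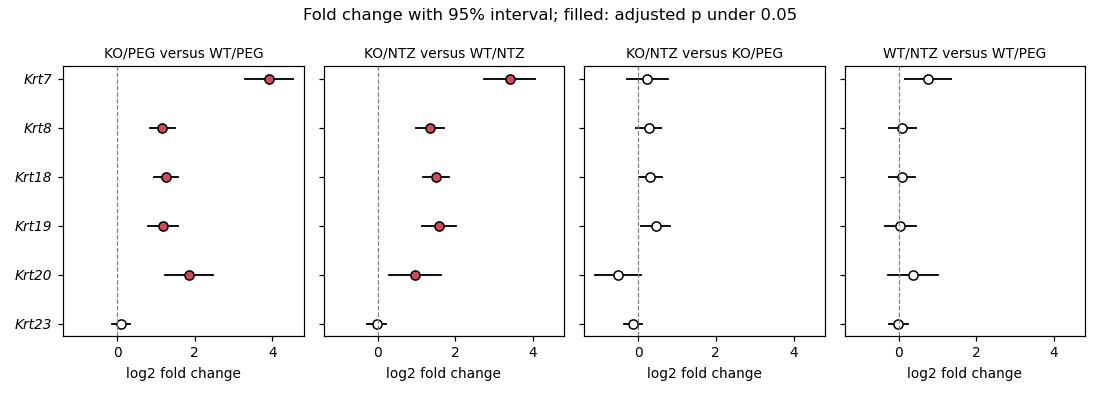
Log2 fold change (points) with 95% interval (lines) of each keratin in 4 comparisons; filled points passed at an adjusted p of 0.05 (edgeR). The 2 genotype comparisons on the left have 5 filled points each, from 0.96 to 3.91, and the 2 antagonist comparisons on the right have none.

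Within groups the keratins did not vary as 1 block. Krt8 and Krt19 moved together most closely, with Pearson's r of 0.97 and Spearman's rho of 0.98 over the 44 libraries after subtracting each group's mean (permutation p = 1e-05 for both, adjusted p = 3e-05 over 15 pairs for r, smallest possible). It was 0.97 without the 2 farthest libraries, 0.97 within animal number classes and 0.95 to 0.99 in the 4 groups taken singly. Krt8 with Krt18, the textbook pair, had r of 0.75 and rho of 0.71 (permutation p = 1e-05 and 2e-05), and r of 0.64 without the 2 farthest libraries. Krt7 with Krt8 had r of 0.73 and rho of 0.76 (permutation p = 1e-05 for both), from 0.28 in WT/PEG to 0.95 in KO/NTZ. Krt20 went with Krt8 at r of 0.54 and rho of 0.56 (permutation p = 0.00019 for both), with r from 0.18 in KO/NTZ to 0.94 in WT/NTZ, but with Krt18 at r of 0.03 and rho of 0.05 (permutation p = 0.819 and 0.761). All 15 values come from the same 44 libraries, and the part of depth and of the mitochondrial share in them was not tested.

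Of the 6 keratins, Krt20 had the strongest pooled relation to Atp4a, the catalytic subunit of the proton pump. It fell as Atp4a rose within groups, with r of -0.58 and rho of -0.56 (permutation p = 1e-05 for r, adjusted p = 7.5e-05 and 0.00095), and r of -0.51 without the 2 farthest libraries. In the groups taken singly r was -0.62 in WT/PEG, -0.70 in KO/PEG, -0.76 in WT/NTZ and -0.25 in KO/NTZ. The pooled r with Atp4a was -0.37 for Krt7, -0.32 for Krt8 and -0.31 for Krt19, none at an adjusted p of 0.05, and in single groups these could be steeper than for Krt20, with -0.86 for Krt8 in WT/NTZ and -0.74 for Krt18 in KO/NTZ. Whether the keratins differ in this relation was not tested. Krt18 and Krt23 instead fell as Ptprc rose, each with r of -0.58 (rho of -0.51 and -0.61, permutation p = 0.00042 and 0.0002 for r, adjusted p = 0.0018 and 0.0012), and r was -0.52 and -0.54 without the 2 farthest libraries. Krt19 with Ptprc was weaker (r = -0.41, rho = -0.36, permutation p = 0.0135 and 0.0234, adjusted p = 0.045 and 0.078). Neither the total count nor Krt5 reached an adjusted p of 0.05 with any of the 6.

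**Figure D4:**
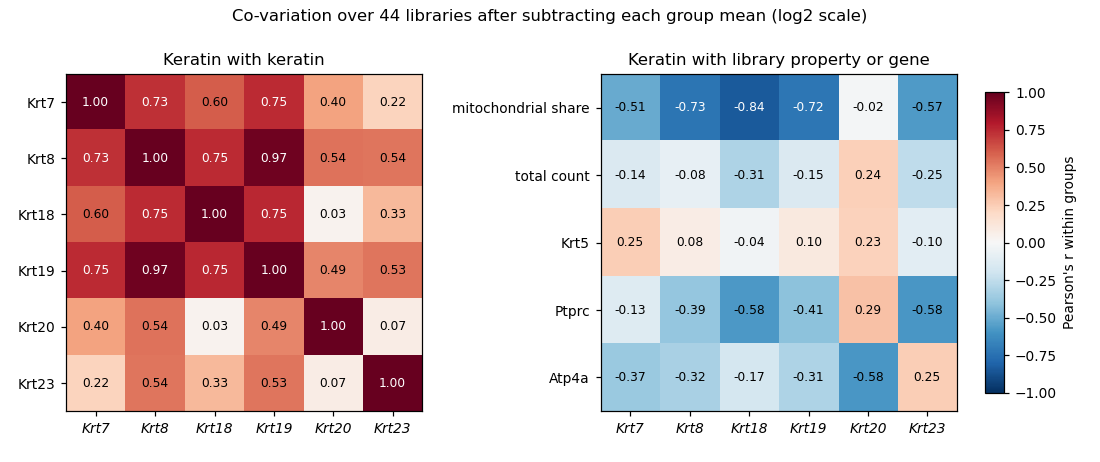
Pearson's r of log2 CPM after subtracting each group's mean, over 44 libraries, between keratins (left) and between keratins and the mitochondrial share, total count, Krt5, Ptprc or Atp4a (right). Krt8 and Krt19 share the highest value, 0.97, and the mitochondrial share goes with Krt18 at -0.84 but with Krt20 at -0.02.

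The 3 genes most alike to each keratin by this within-group correlation, among 13935 genes, are named here, and no gene was named for more than 1 keratin. The values within each list lay close together, and Krt8 and Krt19 themselves went together at r of 0.97. Lists cut at 3 therefore do not show that the keratins go with different genes. For Krt7 they were Anxa2 (r = 0.82), Cavin3 (0.82) and S100a10 (0.81); Anxa2 and S100a10 encode the 2 partners of a membrane-bound annexin complex. For Krt8 they were Tagln2 (0.96), Rnh1 (0.95) and Gjb1 (0.94, a gap junction connexin), and for Krt19 Degs2 (0.95), Mgat4b (0.94) and Agpat4 (0.94). Krt18 went with S100a1 (0.94), Prkcsh (0.93) and Scamp4 (0.92). Krt20 went with Tmem45b (0.88), Capn2 (0.84) and Ly6g6e (0.84), and Krt23 with Anxa7 (0.82), Pqlc1 (0.80) and Htatip2 (0.79). All 18 were higher in KO/PEG than in WT/PEG, from 0.39 on the log2 scale for Anxa7 to 2.50 for Anxa2, where 37.5% of all genes were, and none passed between KO/NTZ and KO/PEG, where 5.58% of all genes did.

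Genes that link, bind or control keratins, and other filament genes, were followed in 6 lists, whose counts stand against 74.6% of all genes passing in KO/PEG versus WT/PEG (37.5% higher and 37.2% lower). In the desmosome and keratin linker list, 2 of 14 genes tested rose and 9 fell in KO/PEG (median log2 fold change -0.77 against -0.003 over all genes). The large linkers that tie filaments to junctions and to other parts of the cytoskeleton were among those that fell, Dst by 1.85 (means of 88.2 and 24.4 CPM, adjusted p = 3.82e-13, edgeR) and Macf1 by 1.11 (means of 116.9 and 54.2 CPM, adjusted p = 2.88e-12), together with the plakophilin Pkp4, which fell by 0.70. The plakophilins Pkp3 and Pkp2 rose, at 0.31 and 0.19. Evpl, envoplakin, was higher in KO/NTZ than in KO/PEG at 0.72 (adjusted p = 0.0275), the only one of the 14.

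Of 10 genes listed as keratin-binding and assembly partners, 5 rose and 1 fell (median 0.36). A place in this list does not show that a gene's product binds keratin. Sfn, the 14-3-3 protein sigma that binds phosphorylated keratin, rose by 3.598 (means of 14.2 and 171.7 CPM, adjusted p = 1.19e-09, edgeR), beside 3.91 for Krt7. Krtcap3 and Krtcap2, which carry keratinocyte-associated names, were at 1.72 and 0.79, and Pof1b, an actin-binding junction protein, fell by 1.07. Of 9 epithelial transcription factors tested, 4 rose and 2 fell (median -0.01): Elf3 at 1.35, Ovol2 at 0.93 and Ehf at 0.88 rose, while Grhl1 fell by 0.98 and Klf4 by 0.60. Of 10 adhesion and surface genes, 6 rose and 3 fell (median 1.049). Epcam rose by 1.58, and the tight junction genes Cldn7 and Cldn3 rose by 4.29 and 4.50 from means of 2.05 and 0.508 CPM, while Ezr, Tjp1 and Ocln fell by 0.72, 1.37 and 0.38. None of these 3 lists had a gene past the test between KO/NTZ and KO/PEG. Between WT/NTZ and WT/PEG, 1 stratified keratin, 2 binding partners and 1 adhesion gene passed as higher over all 6 lists, and in the test of the difference between the antagonist's effects 1 other filament gene passed as higher and 1 adhesion gene as lower.

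Of 12 other intermediate filament and lamin genes, 3 rose and 7 fell in KO/PEG (median -0.82). The neurofilament and muscle genes Nefl, Prph and Synm fell by 2.20, 1.72 and 1.18, and Nes, Lmna and Lmnb2 were at 0.51, 0.46 and 0.25. Between KO/NTZ and KO/PEG the neuronal Prph (1.48, adjusted p = 0.000115) and the muscle Des (0.89, adjusted p = 0.00478) were higher and Sync was lower, at -1.28 (adjusted p = 0.0303), all in edgeR. Of the 4 smooth muscle markers, 4 were lower in KO/PEG than in WT/PEG and 2 were higher in KO/NTZ than in KO/PEG. Their summed per-length level was 807 to 1696 in WT/PEG, 287 to 2162 in KO/PEG and 528 to 2064 in KO/NTZ, and its part was not tested.

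Of 14 stratified keratins, Krt79 alone passed between KO/PEG and WT/PEG, against 74.6% of all genes, at 1.90 (means of 3.17 and 11.8 CPM, adjusted p = 1.60e-09, edgeR), with a list median of -0.34. Krt79 was higher again in KO/NTZ than in KO/PEG, at 0.81 (adjusted p = 0.0129), as was Krt78, at 1.61 (adjusted p = 0.0480). Krt78 also passed as higher in WT/NTZ than in WT/PEG, at 2.85 (adjusted p = 0.00532, edgeR). Krt5 was at 10 CPM or more in 6 of those WT/NTZ and 3 of those WT/PEG libraries, and the part of squamous tissue was not tested. The errors were wide, with SEs of 1.28 for Krt1, 1.13 for Krt4 and 1.11 for Krt5 against 0.11 to 0.31 for the 6 simple keratins, so a missed threshold does not show that these genes were unchanged. In the libraries with Krt5 under 1 CPM, Krt13 was nevertheless above Krt4 and Krt14 in every knockout library. It was at 0.178 to 3.10 CPM in 7 WT/PEG libraries and at 0.372 to 0.409 CPM in 2 WT/NTZ libraries. In the knockout it was at 1.15 to 53.1 CPM in 11 KO/PEG libraries and 20.2 to 319 CPM in 6 KO/NTZ libraries. In the same KO/NTZ libraries Krt14 was at 0.546 CPM or less, Krt4 at 3.97 CPM or less and Krt15 at 4.14 CPM or less. The WT/PEG and KO/PEG ranges overlapped in part, with 10 of the 11 KO/PEG libraries above 3.10 CPM, and this subset was chosen after the values were seen and carries no test. Over all libraries, Krt13 did not pass in the genotype comparison (0.01, adjusted p = 0.990).

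**Figure D5:**
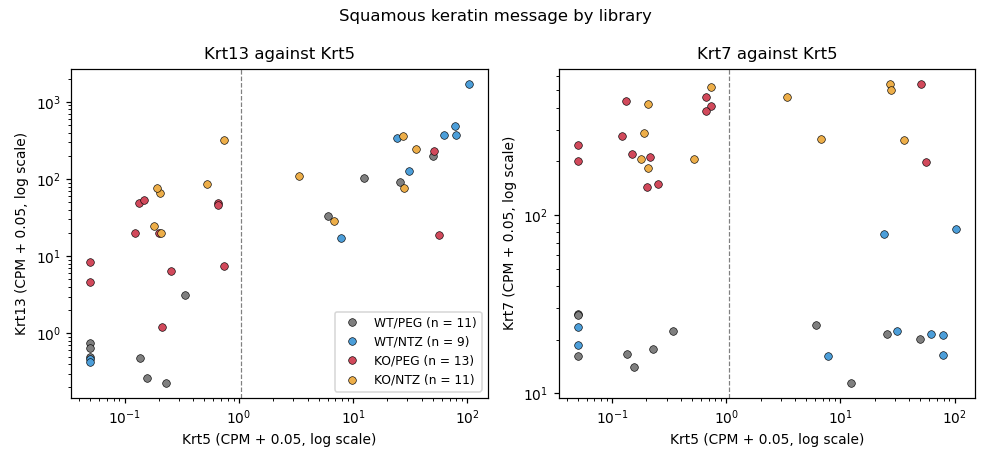
Krt13 (left) and Krt7 (right) against Krt5 in each of the 44 libraries, as CPM plus 0.05 on log scales; the dashed line marks Krt5 of 1 CPM. Left of the line, Krt13 is at 20.2 to 319 CPM in KO/NTZ and at 3.10 CPM or less in WT/PEG, and Krt7 separates the genotypes on both sides of it.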

How the data were processed

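RNA of the gastric corpus was sequenced as single reads on a NextSeq instrument after stranded poly-A library preparation. The authors deposited estimated counts from kallisto 0.42.4 for 94080 GRCm38 transcripts in 44 libraries; the annotation release is not given in the sources used here. Transcripts were paired with GENCODE vM21 gene names (92372 of 94080; the rest held 0.329% to 1.3% of counts), summed per gene and rounded. edgeR 4.0.16 (R 4.3.3) fitted all libraries with 1 mean per group, after its expression filter (minimum count 10, total 15) and TMM normalisation, and calls were made at an adjusted p of 0.05. DESeq2 1.42.0, limma 3.58.1 and the alternatives of the closing section were fitted the same way. The SEs given with edgeR results were derived, as the absolute log2 fold change divided by the square root of the test's F statistic. The intervals were built from these SEs with a t quantile. On simulated counts for KO/NTZ versus KO/PEG, 87% of 2-fold and 99.0% of 4-fold changes were recovered, with 8 false calls among 193. All libraries, wild type included, were simulated from the knockout mean, so the genotype difference of the real data was absent. No change under 2-fold was simulated, so the recovery does not bear on the smaller keratin estimates in this comparison.

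Groups came from the labels. WT/PEG libraries 172_1 and 172_2 share an animal number and may be pieces of one animal. Their counts differed by more than counting noise (chi-square per degree of freedom 17.2, rank 11 of 55 WT/PEG pairs, which ran from 5.67 to 89.4), so they are not one library deposited again, and both were kept, with their sum as an alternative. Nothing says whether replicates share litters or extraction days, so p-values measure the spread between these libraries. The 6 keratins, the lists and the comparisons were chosen with earlier results of these data known. By rule, the text names the 6 keratins, the 3 genes most alike to each (mean CPM of 1 or more), up to 3 genes per list and direction in the genotype and knockout antagonist comparisons, and transcripts holding 10% or more of a gene's count. Further genes named were marker genes or were chosen after their values were seen.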

Additional observations from a re-analysis of the deposited data

How the results depend on the processing

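Over the keratins, comparisons and alternatives, 361 values kept their direction and their side of the threshold, 18 changed sign, 4 passed where they had not and 1 no longer passed, the last kinds being given with the results. Those that changed sign were all estimates near 0 or resting on the 2 WT/NTZ libraries of high Krt7, and the cause was not tested. Without those libraries the WT/NTZ versus WT/PEG value was -0.0636 for Krt8 and -0.167 for Krt19, and without libraries of high Krt5 it was -0.0936 for Krt7, -0.0307 for Krt8 and -0.116 for Krt19. The Krt7 difference between antagonist effects became 0.239 and 0.258 in these fits. For Krt23, WT/NTZ versus WT/PEG was 0.00436 with DESeq2's size factors in edgeR, 0.0165 with only the groups compared, 0.0608 with animal number class in the fit, 0.0718 with animals numbered 100 or above, 0.00444 in DESeq2 and 0.0326 with total counts. Krt23 in KO/NTZ versus WT/NTZ was 0.0281 with number class, 0.0208 with animals numbered below 100, 0.122 with total counts and 0.000428 without the high-Krt7 pair, and between vehicle groups -0.162 with the mitochondrial share.

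The count of genes passing moved more. For KO/NTZ versus KO/PEG it was 831, and 258 with only the groups compared, 1291 with number class, 96 with animals numbered below 100, 1249 in DESeq2 and 347 without libraries of high Krt5. For WT/NTZ versus WT/PEG it was 154, and 0 in edgeR with only the groups compared (2121 at an unadjusted p under 0.05), 307 with number class, 852 with animals numbered 100 or above, 2 in limma, 14 without the high-Krt7 pair and 29 without libraries of high Krt5. For KO/NTZ versus WT/NTZ, 10796 became 6816 with the mitochondrial share. For the difference between antagonist effects, the count was 53 in limma, 274 in DESeq2, 47 without the high-Krt7 pair, 21 without libraries of high Krt5 and 277 with the mitochondrial share.

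With 200 bases taken off each length, the Krt8 to Krt19 ratio was 0.862 in WT/PEG, 0.839 in KO/PEG, 0.897 in WT/NTZ and 0.754 in KO/NTZ, and the type II to type I ratio 0.585, 0.583, 0.597 and 0.554. With the longest coding length the first was 1.28, 1.29, 1.34 and 1.14 in the same order, and the second 0.758, 0.761, 0.771 and 0.734. With total counts alone, 7276 genes passed as higher and 2965 as lower between KO/PEG and WT/PEG, against 5585 and 5538. The fits without library 46, without the high-Krt7 pair, without libraries of high Krt5, with the mitochondrial share, with total counts and with coding lengths were chosen after seeing the data. No paired analysis was possible because the groups compared share fewer than 2 animal numbers. The number shared is 110, in KO/PEG and KO/NTZ. Leaving out both libraries of that number, or summing the WT/PEG pair that shares an animal number, changed no call of a keratin, and the first left 685 genes passing between KO/NTZ and KO/PEG.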
